A study of Homo sapiens with 14 samples.

Results

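OVCAR3 is a human ovarian carcinoma cell line, and the comparison described here set a cisplatin-resistant derivative carrying a control hairpin against the parental line. The libraries were chosen by their titles: 2 titled OVCAR3-DDP-shNC and 2 titled OVCAR3-WT, 4 of the 14 RNA libraries of a study of RNA editing in platinum resistance. DDP is a common abbreviation of cisplatin, and shNC is the short hairpin used here as the control for hairpins sh1 and sh2, which target ADAR1 in the same resistant cells. The parental libraries carry the genotype label WT and no hairpin. No drug dose or exposure time, no vector and no statement on clones or pools is given in the sources used here. Resistance, transduction with a hairpin and the set of libraries therefore go together in this comparison and cannot be told apart. The labels do not say whether the 2 libraries of a group were grown apart, and the spread behind each p-value may thus be technical. Other groups, given only beside results, were the hairpin groups sh1 and sh2, libraries titled OVCAR3-DDP with the label DDP and no hairpin in the title, and parental A2780 and A2780-DDP, a second ovarian cancer line and its resistant derivative. All groups held 2 libraries.

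Cisplatin kills cells by crosslinking DNA, and cells are known to resist it by taking up less drug, exporting it, binding it to thiols and metal-binding proteins, repairing the crosslinks or tolerating them. Several of the groups of genes below belong to those routes. Others belong to the response to low oxygen. In that pathway prolyl hydroxylases mark the HIF alpha subunits for destruction while oxygen is present, and when hydroxylation stops HIF binds short sites near its target genes. Those targets import glucose, run glycolysis, divert pyruvate from mitochondria, buffer acid and signal to blood vessels.

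Counts assigned to genes were 35864655 and 49115255 in the parental libraries and 23697078 and 22987515 in the shNC libraries, within 20428538 to 49115255 over all 14. Levels are given as CPM (counts relative to library size, after scaling by the trimmed mean of M-values, TMM, over all libraries), as the values of both libraries of a group. Differences are log2 of shNC over parental from edgeR's quasi-likelihood F-test with an approximate standard error (SE), and a gene is said to be called, higher or lower where its Benjamini-Hochberg adjusted p was below 0.05. Reads with more than 1 alignment made up 3.22% and 2.36% of reads in the parental libraries and 4.89% and 4.94% in the shNC libraries. All 6 hairpin libraries lay between 4.64% and 4.99% in that share, and the other 8 between 2.36% and 3.22%. In bulk RNA, fewer cells of a kind and less RNA per cell cannot be told apart. The counting mode for strand is not given, so genes that overlap on opposite strands, and near-identical copies such as keratin, histone, metallothionein and HLA genes, carry more uncertainty than their errors show.

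ADAR, which encodes the editing enzyme that sh1 and sh2 target (on the minus strand of chromosome 1 from 154582057 to 154628013 in GRCh38, ENSG00000160710.18), checked the labels first. Its level was 445 and 547 CPM in the parental libraries and 500.0 and 454 CPM in the shNC libraries. The groups overlapped, with a log2 difference of −0.05 (SE 0.13). Under sh1 it was 308 and 262 CPM and under sh2 119.8 and 118 CPM, so both targeting hairpins lay below the parental and the shNC libraries. The libraries titled OVCAR3-DDP held 321 and 310.3 CPM. ADARB1, a second editing enzyme, was at 108 and 132 CPM in parental and 127 and 118 CPM in shNC cells, a log2 difference of 0.03 (SE 0.13). ADARB2, a brain-enriched relative, had 1 count in 1 shNC library and 0 in the others of this comparison. Of 24 genes for editing enzymes, transfer RNA deaminases and double-stranded RNA binding partners, 13 were tested, 0 were higher and 7 lower. DHX9, an RNA helicase that unwinds structured RNA, went from 379 and 396 to 197 and 179 CPM (log2 −1.04, SE 0.12; edgeR adjusted p = 3.72e-07).

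Identity was read from ovarian carcinoma markers. Of 25 listed 18 were tested, 9 were higher and 2 lower, against 27.5% and 29.1% of all genes tested. The list summed to 4055.5 to 4558 CPM in parental and 5731 to 6182 CPM in shNC libraries. KRT7, a keratin of simple epithelium, was at 1132 and 1009 CPM in parental and 1079 and 1191 CPM in shNC libraries, and KRT8 at 1489 and 1326 CPM in parental and 1427 and 1537 CPM in shNC. Neither was called. The folate receptor gene FOLR1 was higher in shNC, at 1293 and 1468 against 430.5 and 421 CPM (log2 1.7, SE 0.12; edgeR adjusted p = 1.45e-10), and MSLN, encoding mesothelin, stood at 389 and 398 against 259 and 234 CPM. Some defining markers were at or near 0 in both groups: WT1 and SOX17 had 0 counts in all 4 libraries, E-cadherin (CDH1) had 9 and 7 counts in parental and 0 in both shNC libraries, and WFDC2 had 2 counts in 1 shNC library. PAX8, the Müllerian lineage factor, was at 3.45 and 4.61 CPM in parental and 6.09 and 5.39 CPM in shNC and not called, though it was without parental replicate 2 (0.71) and with upper-quartile scaling (0.58; edgeR adjusted p = 0.0478). Simple keratins, EPCAM, MUC16, the folate receptor and mesothelin were therefore present in both groups, while several genes usual in ovarian carcinoma were at or near 0 in both. That the libraries are OVCAR3 rests on their labels, and with these markers missing their identity is in doubt and was not tested further. In the libraries titled OVCAR3-DDP, by contrast, KRT7 was at 0.345 and 0.107 CPM and FOLR1 at 0.345 and 0.215 CPM, so they stand apart from the parental line in markers that shNC, sh1 and sh2 keep. Markers of other cells were mostly at low levels. Of 16 immune markers 5 were tested, with a summed level of 3.83 to 4.20 CPM in parental and 3.07 to 3.26 CPM in shNC libraries, and CD3E had 0 counts in all 4. Endothelial markers summed over 12 genes to 17.2 to 19.9 CPM in parental and 26.1 to 29.4 CPM in shNC, with PECAM1 at 7 and 1 counts in parental and 0 in shNC. The members moved both ways: of 4 tested 1 was higher and 2 lower, and CDH5 had 62 and 77 counts in parental and 3 and 2 in shNC. Of the fibroblast and mesothelial markers, whose sums stand beside the matrix genes further on, COL1A1 carried the most, at 62.9 and 56.3 CPM in parental and 109 and 112 CPM in shNC. Neural and embryonic kidney markers summed over 20 genes to 176 to 177 CPM in parental and 147 to 152 CPM in shNC, and of 13 tested 3 were higher and 4 lower. NEFL and NEFM, neurofilament genes, had 0 counts in both parental libraries and 37 and 46 and 43 and 62 counts in shNC, while STMN2 had 0 counts in all 4.

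The 2 groups differed in a large share of the transcriptome. Of 20017 genes tested, 11347 (56.7%) were called, 5514 higher in shNC (27.5%) and 5833 lower (29.1%). With a difference of at least 2-fold, 6000 genes were called, 3122 higher (15.6%) and 2878 lower (14.4%). At 4-fold or more, 1483 (7.41%) were higher and 1028 (5.14%) lower. Parental and shNC libraries did not overlap in 16002 genes (79.9%). The median log2 difference over all genes was −0.03. Counts for groups of genes below are to be read against these shares, since more than 1 gene in 4 was called in each direction.

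**Figure D1:**
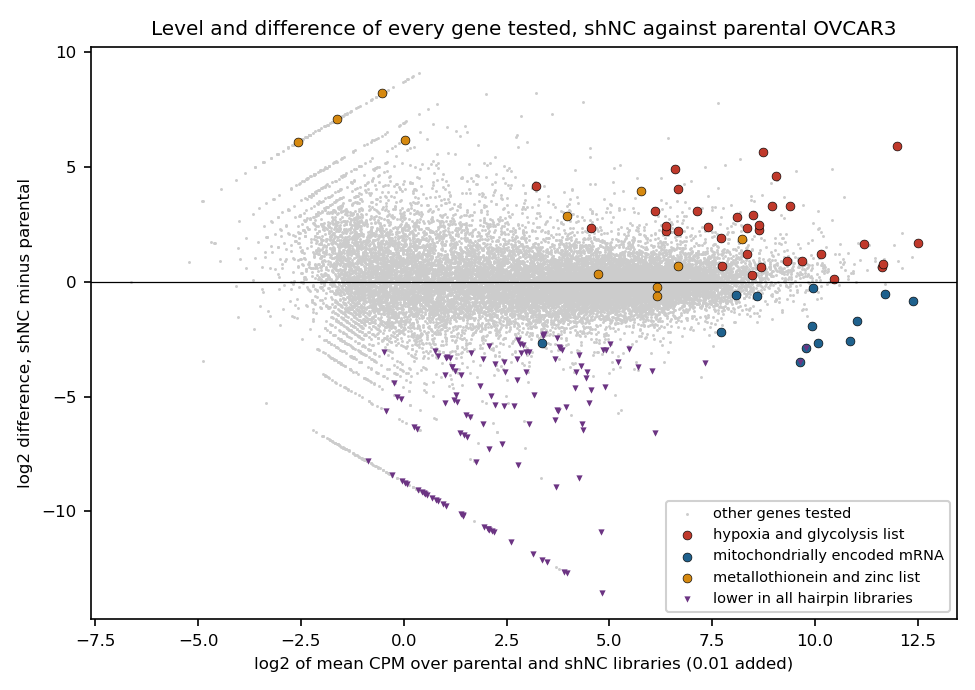
Log2 difference of shNC minus parental OVCAR3 (vertical axis) against the log2 mean CPM of the 4 libraries (horizontal axis) for every gene tested, with genes of 4 sets marked. Members of the hypoxia and glycolysis list lie between 0.12 and 5.89, 12 of 13 mitochondrially encoded messenger RNAs were called lower, and the diagonal lines of points at the left hold genes with few or 0 counts in a group.

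Genes of the hypoxic response and glycolysis were higher in the shNC libraries. Of 33 listed genes all were tested, 32 were called higher and 0 lower, 25 of them by 2-fold or more, and the median log2 difference was 2.33. The list summed to 13456 to 14586 CPM in the parental libraries and to 42946 to 44172 CPM in the shNC libraries. In no member did the groups overlap. NDRG1, a hypoxia-induced gene of the N-myc downstream-regulated family, was at 131 and 138 CPM in parental and 8011 and 7950.4 CPM in shNC libraries (log2 5.89, SE 0.13; edgeR adjusted p = 1.05e-17). ADM encodes the vasodilator peptide adrenomedullin and was at 19.3 and 14.8 CPM in parental and 802 and 871 CPM in shNC (5.62, SE 0.16; edgeR adjusted p = 1.62e-16). ANKRD37, a small ankyrin repeat gene and direct HIF target, was at 6.68 and 5.78 CPM in parental and 187 and 189 CPM in shNC (4.92, SE 0.16; edgeR adjusted p = 9.83e-16). In each of these genes both shNC libraries lay far above both parental ones, and the libraries of a group differed little.

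The promoters of 3 of these genes are shown, since members of the list moved together and the binding core of HIF is short enough to look for. They are the 250 bases before the RefSeq start on GRCh38.p14, read 5′ to 3′ on the gene's strand, with matches to ACGTG or GCGTG on either strand in capitals.
ANKRD37, chr4:185396591-185396840, plus strand: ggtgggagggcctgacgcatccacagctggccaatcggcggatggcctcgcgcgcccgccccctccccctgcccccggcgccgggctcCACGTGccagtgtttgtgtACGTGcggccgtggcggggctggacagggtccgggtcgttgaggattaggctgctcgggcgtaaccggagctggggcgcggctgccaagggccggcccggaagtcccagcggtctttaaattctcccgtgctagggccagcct
ADM, chr11:10304823-10305072, plus strand: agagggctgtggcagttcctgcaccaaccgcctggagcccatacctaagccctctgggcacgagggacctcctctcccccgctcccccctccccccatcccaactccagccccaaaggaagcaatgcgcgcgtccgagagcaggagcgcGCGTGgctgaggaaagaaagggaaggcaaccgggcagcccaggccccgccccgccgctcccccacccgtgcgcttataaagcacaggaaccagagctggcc
CA9, chr9:35673678-35673927, plus strand: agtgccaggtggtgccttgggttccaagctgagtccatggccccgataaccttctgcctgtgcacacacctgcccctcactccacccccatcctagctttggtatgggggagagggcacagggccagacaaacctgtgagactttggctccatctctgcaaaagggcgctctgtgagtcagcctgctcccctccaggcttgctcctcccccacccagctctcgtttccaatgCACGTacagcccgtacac
The ANKRD37 window holds the palindrome CACGTG, which is a match on each strand, from position −162 of the start, and another match at −143. ADM has a match at −101 and CA9 at −18. In windows from 250 bases before to 50 after the start, 34 of 48 promoters of 28 called members held the core (70.8%), against 48.45% of 35116 promoters in the table, and 28 of the 32 called members had an entry. The 1 member not called, LDHA, held it in 2 of 2 promoters. The core of 5 letters is thus common by itself, and EGLN3, described next, had 0 matches in the 250 bases before its start.

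Further members of the list followed the same direction. EGLN3, a prolyl hydroxylase that marks HIF alpha and is itself a HIF target, was at 13.2 and 10.7 CPM in parental and 189 and 195 CPM in shNC libraries (4.01, SE 0.15; edgeR adjusted p = 6.5e-15). CA9, a carbonic anhydrase at the cell surface that buffers acid, was at 139.7 and 105 CPM in parental and 653 and 698 CPM in shNC (2.47, SE 0.14; edgeR adjusted p = 6.08e-12). Its relative CA12 was at 0.89 and 1.06 CPM in parental and 18.6 and 16.5 CPM in shNC (4.16, SE 0.23; edgeR adjusted p = 3.52e-12). VEGFA, the growth factor of vessels, was at 125 and 152 CPM in parental and 675 and 642 CPM in shNC (2.25, SE 0.14; edgeR adjusted p = 2.49e-11). All 4 genes were higher in both shNC libraries than in either parental one, and CA12 stayed under 20 CPM. BNIP3 and BNIP3L, which direct mitochondria to autophagy, were higher by log2 2.88 and 2.39, and the collagen prolyl hydroxylases P4HA1 and P4HA2 by 1.88 and 2.33.

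In glycolysis the importers of glucose and the regulatory steps were among the larger differences. The glucose importer SLC2A1 was at 123 and 127 CPM in parental and 1234 and 1214 CPM in shNC libraries (3.29, SE 0.13; edgeR adjusted p = 1.4e-14). SLC2A3, the high-affinity glucose importer, was at 42.2 and 41.5 CPM in parental and 999 and 1021 CPM in shNC (4.59, SE 0.13; edgeR adjusted p = 1.44e-16), and SLC2A14, a near-identical copy whose reads cannot be told apart with certainty, had 0.0835 and 0.0997 CPM in parental and 15.5 and 13.3 CPM in shNC. Hexokinase 2 (HK2), which traps glucose, was higher by 3.31, against 1.2 for HK1. The enzymes PFKFB3 and PFKFB4, which make the activator of phosphofructokinase, were higher by 2.43 and 3.06. Several later enzymes differed less: GAPDH stood at 2876 and 2614 CPM in parental and 8351 and 9200.3 CPM in shNC (1.68), PGK1 was higher by 1.63, ENO1 by 0.63 and PKM by 0.78, although the isoforms ALDOC and ENO2, usual in neurons, were higher by 3.08 and 2.83. PGAM1 was higher by 0.30 (SE 0.12; edgeR adjusted p = 0.0405), and this call was lost without a low-count filter (0.25) and without parental replicate 2 (0.15), shNC replicate 1 (0.33) or shNC replicate 2 (0.26). LDHA, lactate dehydrogenase, was the 1 member not called, at 1405 and 1294 CPM in parental and 1448 and 1484 CPM in shNC libraries (0.12, SE 0.11; edgeR adjusted p = 0.355). PDK1, the kinase that closes pyruvate entry to mitochondria, was higher by 2.21 and the lactate exporter SLC16A3 by 0.89.

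**Figure D2:**
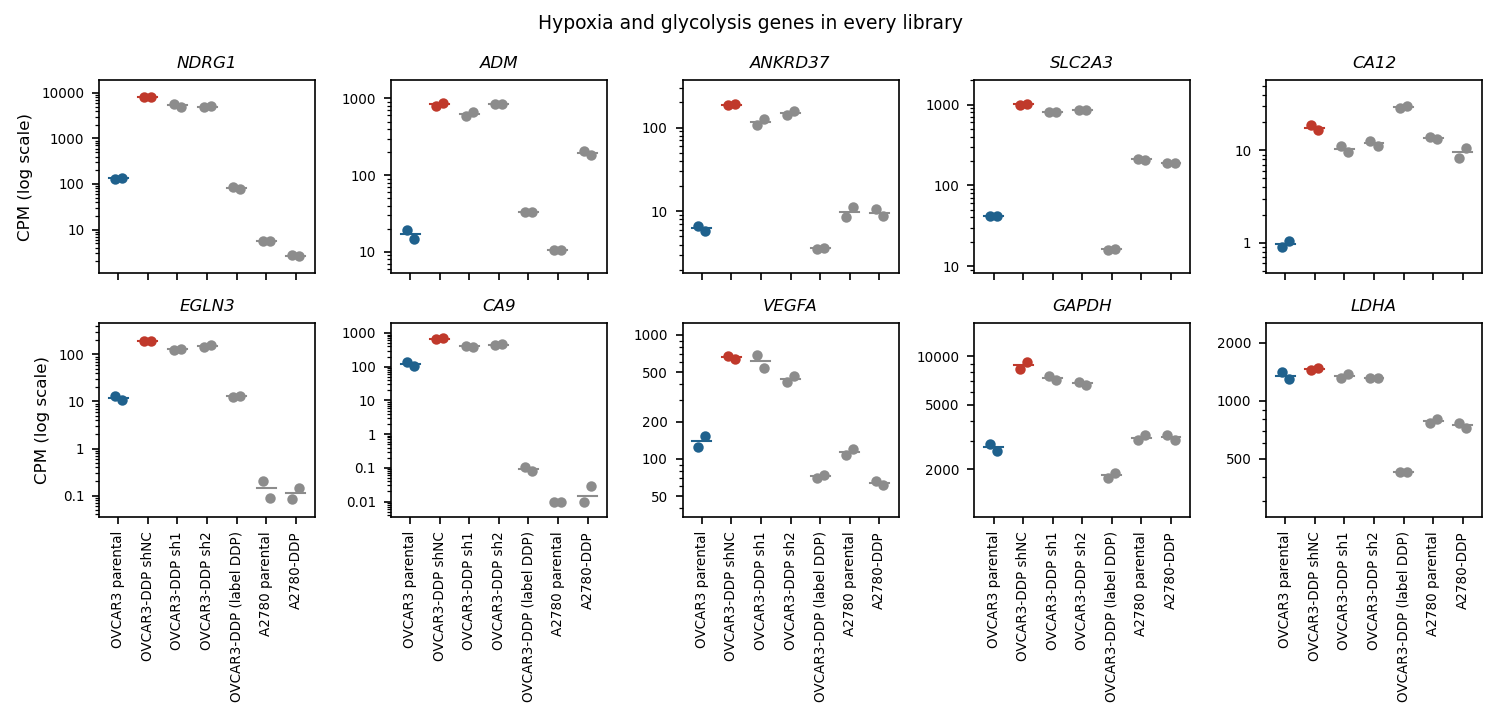
CPM on a log axis of 10 hypoxia and glycolysis genes in each of the 14 libraries, 2 points and their mean (line) per group, with values below 0.01 CPM drawn at 0.01. NDRG1, ADM, ANKRD37, SLC2A3 and EGLN3 were high in shNC, sh1 and sh2 and low in parental OVCAR3, and LDHA was alike in the 8 libraries of those groups.

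The same genes in the other groups of the study showed which libraries carried the difference. NDRG1 was at 5786 and 4919 CPM in sh1, 4800.0 and 5120.4 CPM in sh2 and 83.8 and 78.3 CPM in the libraries titled OVCAR3-DDP. SLC2A3 was at 809 and 813 CPM in sh1, 859 and 848 CPM in sh2 and 16 and 16.4 CPM in OVCAR3-DDP. The high level was thus found in every hairpin library, targeting or not, and in neither library titled OVCAR3-DDP. Measured as the median over list members of the log2 level (0.5 CPM added) less the parental OVCAR3 mean, the list stood at 2.29 and 2.28 in shNC, 1.96 and 1.96 in sh1, 1.88 and 1.92 in sh2 and −0.74 and −0.70 in the libraries titled OVCAR3-DDP. In A2780-DDP against parental A2780, where 18.4% of 22374 genes were higher and 16.2% lower, 6 members were higher and 9 lower with a median of −0.04. Hairpin, resistance and library set cannot be told apart as the condition that goes with the level.

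**Figure D3:**
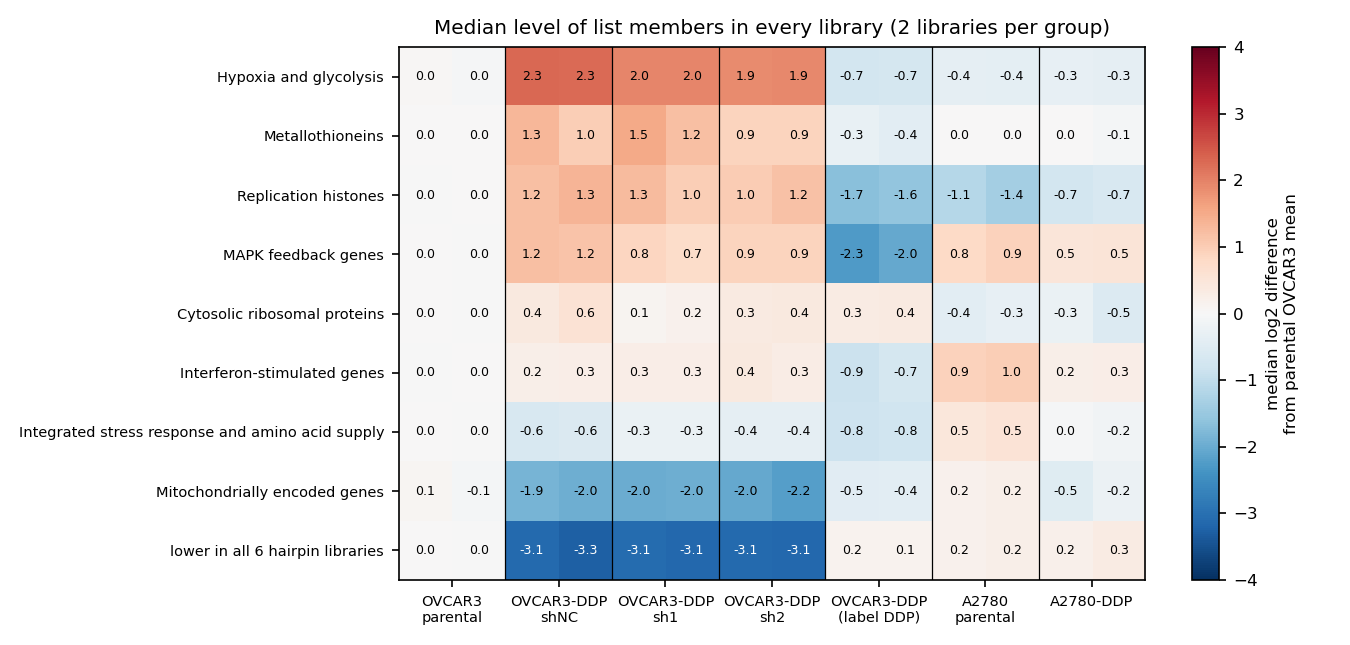
Median over list members of the log2 level (0.5 CPM added) less the mean of the parental OVCAR3 libraries, for 9 gene sets (rows) in each of the 14 libraries (columns, 2 per group). The set lower in all 6 hairpin libraries was chosen by its levels in these libraries, so its row follows from that choice. The 6 hairpin libraries share high median levels of the hypoxia and histone lists, which the libraries titled OVCAR3-DDP do not show. The hairpin libraries also share low mitochondrially encoded levels, which lie below parental by less in the libraries titled OVCAR3-DDP.

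Several of the 15 coding genes with the largest higher differences lay outside the glycolytic pathway. CGA, the alpha subunit shared by the glycoprotein hormones, was at 1.5 and 2.03 CPM in parental and 366 and 429 CPM in shNC libraries (7.79, SE 0.19). STC1, encoding the glycoprotein hormone stanniocalcin, was at 0.195 and 0.159 CPM in parental and 43.1 and 38.6 CPM in shNC (7.84, SE 0.23; edgeR adjusted p = 1.94e-16). It was 1 of 5 genes at 30 CPM or more in one group and under 0.3 CPM in the other, and the only one of them on in shNC. ANGPTL4, a secreted inhibitor of lipoprotein lipase, was at 2.5 and 1.97 CPM in parental and 165 and 174 CPM in shNC (6.26, SE 0.17), and HILPDA, a lipid droplet protein induced by hypoxia, at 15 and 12.6 CPM in parental and 539 and 582 CPM in shNC (5.35, SE 0.15). Each of them was also high in sh1 and sh2, with STC1 at 34.1 and 34.4 and 58 and 59.8 CPM. CLEC2B, a ligand of a natural killer cell receptor, was at 0.0278 and 0.0797 CPM in parental and 16.4 and 20.3 CPM in shNC, PCK1, the gluconeogenic enzyme, at 0.0278 and 0.239 CPM in parental and 23.7 and 24.9 CPM in shNC, and INHBA, the activin A subunit, at 0.807 and 1.22 CPM in parental and 45.4 and 44.7 CPM in shNC. These 3 were near 1 CPM or below in parental cells, so their folds rest on few parental counts. MYEOV was at 1.61 and 2.63 CPM in parental and 66.2 and 68.6 CPM in shNC (4.96, SE 0.19; edgeR adjusted p = 1.3e-14).

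Messenger RNA made from the mitochondrial genome was lower in shNC. All 13 listed genes were tested, 12 were lower and 0 higher, 8 by 2-fold or more, with a median log2 difference of −1.93. They summed to 24482 to 27149 CPM in the parental libraries and 10516 to 10594 CPM in shNC. MT-CYB, a subunit of complex III, was at 1611 and 1320.5 CPM in parental and 133 and 126 CPM in shNC libraries (−3.5, SE 0.14; edgeR adjusted p = 2.09e-14). MT-ND2, of complex I, was at 1635 and 1467 CPM in parental and 211 and 210.1 CPM in shNC (−2.88, SE 0.13), and MT-CO3, of complex IV, at 3404 and 2919 CPM in parental and 526 and 521 CPM in shNC (−2.59, SE 0.12). The members did not move by the same amount: MT-CO1 (−0.85, SE 0.11) and MT-ND4 (−0.54, SE 0.11) were lower by less, and MT-ND5, at 999 and 1154 CPM in parental and 951 and 845 CPM in shNC, was not called (−0.26, SE 0.12; edgeR adjusted p = 0.0651), though it was without parental replicate 1 (−0.37; edgeR adjusted p = 0.0152), without a low-count filter (−0.32) and by limma-voom (−0.26). The 2 mitochondrial ribosomal RNAs lay in the other direction, MT-RNR2 at 1984 and 1843 CPM in parental and 5756 and 5936 CPM in shNC (1.61, SE 0.11) and MT-RNR1 at 355 and 251 CPM in parental and 673 and 693 CPM in shNC (1.17, SE 0.14). Transcripts from one genome were therefore lower and higher in the same libraries. The higher ribosomal RNA was not particular to shNC. Both genes were also higher in A2780-DDP than in parental A2780, with a median of 0.82. Their sum was 2094 to 2339 CPM in parental OVCAR3, 6429 to 6629 CPM in shNC and 3861.5 to 3911 CPM in the libraries titled OVCAR3-DDP. Mitochondrial genes overlap and share sequence with nuclear copies, and reads with more than 1 alignment, which were not counted, were more frequent in the shNC libraries as given above. Their part in the result was not tested.

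In the other libraries the median of the 13 genes less the parental OVCAR3 mean was −1.99 and −1.96 in sh1, −2.04 and −2.21 in sh2 and −0.46 and −0.41 in those titled OVCAR3-DDP. A2780-DDP had 11 of the 13 lower than its parental line and 1 higher, with a smaller median of −0.58. The difference between the lines was called below for 7 and above for 0 members. Nuclear genes of the respiratory chain differed less: of 33, 4 were higher, 11 lower and 18 not called, with a median of −0.20. Without shNC replicate 1 the fit gave 8 calls in place of 15 and a median of −0.10, and upper-quartile scaling gave a median of −0.12. ATP5MC1, of the ATP synthase ring, was at 137 and 113 CPM in parental and 58.1 and 62.1 CPM in shNC libraries (−1.06, SE 0.13; edgeR adjusted p = 1.17e-06), and NDUFS1, of complex I, at 148 and 152 CPM in parental and 91.6 and 87.7 CPM in shNC. NDUFV2 went the other way, from 2.39 and 2.61 to 13.7 and 12.2 CPM.

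Metallothioneins bind zinc and copper through cysteine clusters, can bind platinum, and are induced by zinc through MTF1. Of 13 genes for metallothioneins, MTF1 and zinc transporters, 11 were tested, 8 were higher and 1 lower, with a median log2 difference of 2.84, or 0.74 over members at a mean of at least 5 CPM. Their summed level was 401 to 405 CPM in parental and 838 to 924 CPM in shNC libraries. MT2A, the major form in many tissues, was at 138 and 121 CPM in parental and 447 and 497 CPM in shNC (1.87, SE 0.13; edgeR adjusted p = 1.36e-10), and MT1X at 6.01 and 7.04 CPM in parental and 90.5 and 112 CPM in shNC (3.96, SE 0.18; edgeR adjusted p = 1.5e-13). MT1F was at 4.59 and 3.15 CPM in parental and 26.8 and 28.2 CPM in shNC. The groups did not overlap in any of these. MT1H and MT1G had 0 counts in both parental libraries, and with a floor of 3 counts over the group they were at least 39.5-fold and 18-fold higher in shNC, at levels under 2 CPM. MT1E was not called, at 72.6 and 80.1 CPM in parental and 63.4 and 67.4 CPM in shNC (−0.22, SE 0.14; edgeR adjusted p = 0.172). The zinc exporter SLC30A1 was higher by 0.69 (SE 0.13) and the importer SLC39A10 lower (−0.61, SE 0.13). In A2780-DDP 1 of 10 tested members was higher and 2 were lower, with MT2A lower there (−2.12, SE 0.14), and the difference between the lines was called for MT2A (4.01, SE 0.19; edgeR adjusted p = 5.5e-09).

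The promoters of MT1X and MT2A are shown with matches to the metal response core TGCNCNC, on either strand, in capitals, again as 250 bases before the RefSeq start on GRCh38.p14.
MT1X, chr16:56682220-56682469, plus strand: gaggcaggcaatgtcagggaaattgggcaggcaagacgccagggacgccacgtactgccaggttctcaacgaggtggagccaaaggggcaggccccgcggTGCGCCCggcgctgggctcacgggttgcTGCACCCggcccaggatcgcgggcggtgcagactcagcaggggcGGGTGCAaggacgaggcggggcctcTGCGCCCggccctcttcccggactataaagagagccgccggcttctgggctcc
MT2A, chr16:56608334-56608583, plus strand: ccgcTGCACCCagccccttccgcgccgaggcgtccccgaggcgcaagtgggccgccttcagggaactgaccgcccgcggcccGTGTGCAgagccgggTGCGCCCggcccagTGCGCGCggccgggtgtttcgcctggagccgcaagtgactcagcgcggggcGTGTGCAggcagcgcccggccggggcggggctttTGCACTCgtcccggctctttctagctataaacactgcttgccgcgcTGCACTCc
MT1X has 4 matches, at −150, −122, −78 and −53, and MT2A has 7, the nearest to the start at −8 and −54. In the 300-base windows all 5 promoters found for members called higher held the core, against 55.89% of all promoters, as did 1 of 2 for the member called lower and the 1 found for a member not called.

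Genes of other routes by which cells are known to handle platinum moved both ways. Of 18 genes of copper transport, organic cation transport and volume-regulated anion channels, 16 were tested, 6 were higher and 2 lower, and a fit without shNC replicate 1 gave 4 calls. SLC31A1, the copper importer CTR1 that also admits cisplatin, was at 52.6 and 58.5 CPM in parental and 81.2 and 90.6 CPM in shNC libraries (0.63, SE 0.13; edgeR adjusted p = 0.000346). The copper exporter ATP7B was at 6.71 and 8.89 CPM in parental and 12.9 and 10.7 CPM in shNC (0.60, SE 0.20; edgeR adjusted p = 0.0150), a call lost without parental replicate 1 (0.41) or shNC replicate 1 (0.46). LRRC8D, the channel subunit that passes cisplatin, was lower, at 35.2 and 37.1 against 105 and 101 CPM (−1.51, SE 0.14; edgeR adjusted p = 8.16e-09). LRRC8D was lower in A2780-DDP too (−1.3, SE 0.10), and the difference between the lines was not called for it (−0.19, SE 0.13; edgeR adjusted p = 0.271). SLC31A1 in contrast was lower in A2780-DDP (−1.5, SE 0.10), a difference between lines that was called (edgeR adjusted p = 1.05e-07). Of 14 drug efflux pumps 12 were tested, 4 were higher and 5 lower. ABCC1 (MRP1), which exports glutathione conjugates, was at 183 and 209 CPM in parental and 121 and 104 CPM in shNC (−0.80, SE 0.14), and ABCG2 at 21 and 21.5 CPM in parental and 11.9 and 9.3 CPM in shNC. ABCC3 was higher, at 135 and 126 against 60.9 and 76.2 CPM, and ABCC2, a cisplatin exporter, was not called, at 1.06 and 1.18 CPM in parental and 0.519 and 0.643 CPM in shNC, though it was called lower in a fit of all 14 libraries (−0.95; edgeR adjusted p = 0.0199). The other 2 called higher with large differences, ABCA1 (3.15, SE 0.21) and ABCG1 (2.96, SE 0.16), are known to move cholesterol.

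Among antioxidant genes driven by NRF2 more were lower than higher, while their summed level was above that of parental cells. Of 29 genes of NRF2 and glutathione metabolism 27 were tested, 3 were higher and 14 lower, 8 of them by 2-fold or more, with a median of −0.45, or −0.27 over members at a mean of at least 5 CPM. The list summed to 6729 to 7753 CPM in parental and 8624 to 9532 CPM in shNC libraries. Such a sum is weighted to members of high level, and FTH1, called higher, was among the 6 coding genes of highest CPM. SLC7A11, the cystine importer that feeds glutathione, was at 118 and 148 CPM in parental and 25.6 and 22.4 CPM in shNC libraries (−2.47, SE 0.17; edgeR adjusted p = 1.98e-10). TXNRD1, thioredoxin reductase, was at 374 and 435 CPM in parental and 114 and 124 CPM in shNC (−1.76, SE 0.13; edgeR adjusted p = 2.51e-10), and NQO1, a quinone reductase, at 125 and 103 CPM in parental and 56.5 and 56 CPM in shNC (−1.02, SE 0.13). GCLM, a subunit of the enzyme that starts glutathione synthesis, was lower (−1.07, SE 0.15). KEAP1, the inhibitor of NRF2, was itself lower, at 16.3 and 15.2 against 57.3 and 52 CPM, and NFE2L2, which encodes NRF2, was not called, at 259 and 274 CPM in parental and 227 and 229 CPM in shNC. The 3 higher members were FTH1 (ferritin heavy chain), GPX4 and HMOX1, at 0.89, 0.45 and 0.98, of which GPX4 lost its call without parental replicate 2 (0.21) or shNC replicate 2 (0.36). In A2780-DDP 12 of the genes were higher and 9 lower. SLC7A11 was higher there by 0.96 (SE 0.11), and its difference between the lines was −3.41 (SE 0.17; edgeR adjusted p = 7.7e-09). The antioxidant response core TGACNNNGC, on either strand, was in 6 of 13 promoters of lower members (46.2%), 0 of 3 of higher members, 2 of 12 of members not called (16.7%) and 13.35% of all promoters. Glutathione S-transferases moved both ways, with 6 higher and 4 lower of 16 tested, and 6 calls in all without shNC replicate 2 and 5 at a mean of at least 5 CPM. GSTP1, the form most linked to platinum, was lower by a small amount, at 367 and 407 against 528 and 428 CPM (−0.30, SE 0.13; edgeR adjusted p = 0.0461), and this call was lost without parental replicate 1 (−0.15), shNC replicate 1 (−0.23) or shNC replicate 2 (−0.39). It was also lost with DESeq2 size factors, upper-quartile scaling, a mean of at least 5 CPM, protein-coding genes only and the compared libraries alone (edgeR adjusted p = 0.0576, 0.127, 0.0814, 0.0647 and 0.0895).

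DNA repair genes showed more lower than higher calls. In nucleotide excision repair, which removes platinum adducts, 21 of 22 genes were tested, 1 was higher and 12 lower, with a median of −0.39. ERCC4 (XPF), the nuclease partner of ERCC1, was at 24.3 and 25.4 CPM in parental and 10.6 and 7.96 CPM in shNC libraries (−1.42, SE 0.17; edgeR adjusted p = 6.7e-07). XPA, the damage verifier, was at 13.4 and 14.9 CPM in parental and 6.94 and 6.78 CPM in shNC (−1.04, SE 0.19), and ERCC2, a helicase of TFIIH, at 77.6 and 75.9 CPM in parental and 47.7 and 44 CPM in shNC (−0.74, SE 0.13). ERCC1 was not called (−0.09, SE 0.13; edgeR adjusted p = 0.569), and the 1 higher member was ERCC5 (0.72, SE 0.21), whose call was lost without shNC replicate 2 (0.66; edgeR adjusted p = 0.0538). In A2780-DDP 4 members were higher and 1 lower, and the difference between the lines was called below for 12 members and above for 2. Of 29 genes of homologous recombination and the Fanconi anemia pathway, which repair crosslinks, 3 were higher and 14 lower, with a median of −0.33. The fit without shNC replicate 1 gave 9 calls and that without shNC replicate 2 gave 8. FAN1, a nuclease for crosslinks, was at 58.5 and 78.2 CPM in parental and 22.8 and 20.1 CPM in shNC (−1.67, SE 0.15; edgeR adjusted p = 1.27e-08), and FANCA at 154 and 169 CPM in parental and 100.4 and 94 CPM in shNC (−0.73, SE 0.12). FANCB was higher, at 64.6 and 64.1 against 24.6 and 30.3 CPM. BRCA1 (−0.20, SE 0.14) and BRCA2 (−0.18, SE 0.19) were not called. In mismatch repair and translesion synthesis 2 of 19 were higher, 6 lower and 11 not called, and the lower calls were near the share over all genes tested (29.1%).

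Genes of cell cycle entry and of mitosis did not move together. Of 31 genes of DNA replication, 8 were higher and 17 lower with a median of −0.49, whereas of 29 mitosis genes 16 were higher and 3 lower with a median of 0.38. Without shNC replicate 2 the mitosis calls numbered 12. E2F2, an activator of S phase genes, was at 51.1 and 51.1 CPM in parental and 6.42 and 6.63 CPM in shNC libraries (−2.97, SE 0.18; edgeR adjusted p = 1.21e-11), and PCNA, the polymerase clamp, at 276 and 220.2 CPM in parental and 129.6 and 128 CPM in shNC (−0.94, SE 0.13). CDT1, which licenses origins, was higher, at 304 and 321 against 134 and 104 CPM (1.4, SE 0.14). Among mitosis genes ANLN, a scaffold of the cleavage furrow, was at 169 and 179 CPM in parental and 416 and 406 CPM in shNC (1.24, SE 0.13; edgeR adjusted p = 5.04e-08) and UBE2C at 106 and 85 CPM in parental and 213 and 221 CPM in shNC (1.18, SE 0.13). The A2780 pair lay the other way round, with 17 replication genes higher and 3 lower and 2 mitosis genes higher and 20 lower. The difference between the lines was called below for 21 of 31 replication genes and above for 23 of 29 mitosis genes. Replication-dependent histone messages, which lack poly(A) tails, were higher in 21 and lower in 0 of 30 tested of 37 listed, with a median of 1.5. Their sum was 197 to 198 CPM in parental and 695 to 736 CPM in shNC libraries. The list leaves out the histone genes H2AC25 and H2BC26, which were both lower in shNC. H2AC25 lay at 0 to 0.0944 CPM in the 6 hairpin libraries and 2.91 to 26.9 CPM in the other 8. H2BC26 lay at 0 CPM in the hairpin libraries and 1.05 to 12.4 CPM in the other 8. The count of 0 lower therefore holds for the listed genes only. H2BC21 was at 30 and 29.8 CPM in parental and 268 and 278 CPM in shNC (3.2, SE 0.13). In A2780-DDP 18 of the listed histone genes were higher and 0 lower, with a median of 1.23. Sums over a list of small structured RNAs and a list of long noncoding RNAs were higher in the same libraries. The second list was drawn up for nuclear RNAs but also holds H19, DANCR and SNHG5. Of 25 small structured RNAs 4 were tested and 3 were higher, with a sum of 13.2 to 14.2 CPM in parental and 41.3 to 42.2 CPM in shNC libraries. Of 18 nuclear long noncoding RNAs tested 10 were higher and 4 lower, against 6 and 3 without shNC replicate 2, with a sum of 2580.0 to 2873 CPM in parental and 6689 to 6866 CPM in shNC libraries. Their part in the histone result was not tested, and the RNA selection is not given in the sources used here.

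**Figure D4:**
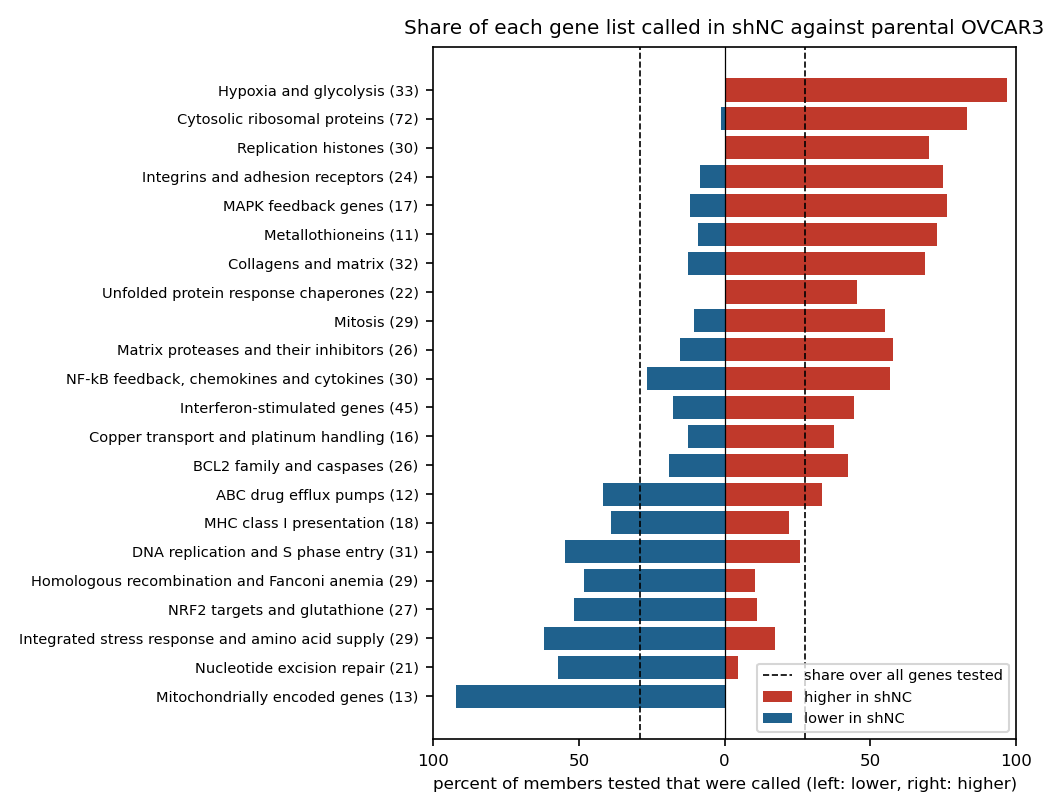
Percent of tested members of 22 gene lists called higher (right) or lower (left) in shNC against parental OVCAR3, with the number tested in parentheses and dashed lines at the share over all genes (27.5% higher, 29.1% lower). Hypoxia and glycolysis genes lie at the top, with 32 of 33 higher, and mitochondrially encoded genes at the bottom, with 12 of 13 lower.

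Growth factor signaling through MAP kinases raises its own inhibitors and the AP-1 factors, and more of these were higher than lower in shNC. Of 18 feedback genes of the pathway 17 were tested, 13 were higher and 2 lower, with a median of 1.20. DUSP5, a phosphatase of nuclear ERK, was at 12.1 and 10.4 CPM in parental and 219 and 209 CPM in shNC libraries (4.26, SE 0.15; edgeR adjusted p = 2.93e-15), and DUSP6, its cytoplasmic counterpart, at 6.76 and 7.89 CPM in parental and 21.7 and 25 CPM in shNC (1.67, SE 0.16). FOSL1, an AP-1 subunit stabilised by ERK, was at 44.8 and 39.5 CPM in parental and 401 and 376 CPM in shNC (3.21, SE 0.14; edgeR adjusted p = 8.66e-14). CCND1, cyclin D1, went against the list and was lower, at 105 and 101 against 183 and 181 CPM (−0.82, SE 0.13). Immediate early genes were higher in 14 and lower in 3 of 24 tested, with a median of 0.62. JUN was at 46.5 and 49.5 CPM in parental and 1015 and 1050.3 CPM in shNC (4.43, SE 0.13; edgeR adjusted p = 1.94e-16), DUSP1 at 58.4 and 59.9 CPM in parental and 647 and 705 CPM in shNC (3.52, SE 0.13) and ZFP36, which destabilises cytokine messages, at 12.3 and 11.9 CPM in parental and 138 and 144 CPM in shNC (3.54, SE 0.14). EGR1 and MYC were lower, at 2.74 and 3.36 against 21.5 and 17.6 CPM and 239 and 249 against 604 and 533 CPM. The libraries titled OVCAR3-DDP had the feedback list at −2.27 and −2.03 as the median log2 level less the parental mean, against 1.19 and 1.15 in shNC. The AP-1 core TGANTCA was in 3 of 13 promoters of called higher feedback genes (23.1%) and in 0 of 3 of the list's other tested genes, against 7.709% of all promoters. In the immediate early list it was in 1 of 15 promoters of called higher genes (6.67%) and in 0 of 5 of the others, so that list did not hold it more often than promoters at large.

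Adhesion and matrix genes were higher in large part. Integrins and other adhesion receptors were higher in 18 and lower in 2 of 24 tested, with a median of 0.92. ITGA5, the fibronectin receptor subunit, was at 271 and 309 CPM in parental and 1740.2 and 1644 CPM in shNC libraries (2.55, SE 0.12; edgeR adjusted p = 5.71e-13), and its ligand FN1, fibronectin, at 187 and 305 CPM in parental and 3232 and 2993 CPM in shNC (3.67, SE 0.18; edgeR adjusted p = 5.44e-13). ITGB4, which joins epithelial cells to laminin, was at 125 and 144 CPM in parental and 1061 and 976 CPM in shNC (2.92, SE 0.16), and the laminin chain LAMB3 at 243 and 261 CPM in parental and 939.9 and 954 CPM in shNC (1.91, SE 0.14). Receptor and ligand of both pairs were thus higher in the same libraries. Of 32 collagen and matrix genes tested 22 were higher and 4 lower. LOX, which crosslinks collagen and is a HIF target, was at 54.2 and 54.1 CPM in parental and 647 and 631 CPM in shNC (3.56, SE 0.13; edgeR adjusted p = 6.5e-15). THBS1, thrombospondin, was lower, at 89.3 and 90.5 against 262 and 233 CPM (−1.46, SE 0.13). Matrix proteases and their inhibitors were higher in 15 and lower in 4 of 26 tested. PLAUR, the urokinase receptor, was at 58.3 and 47.7 CPM in parental and 372 and 364 CPM in shNC (2.8, SE 0.14), while urokinase itself, PLAU, was lower (−1.07, SE 0.19). Fibroblast and mesothelial markers moved in part with these genes. Of 10 tested 4 were higher and 1 lower, against 2 and 1 without shNC replicate 1, and all 15 summed to between 89.5 and 97.9 CPM in parental and between 144 and 146 CPM in shNC. COL1A1 and COL3A1 were among the higher ones (0.89 and 0.63), the latter not without shNC replicate 1 (0.59). DCN was at 3.45 and 3.57 CPM in parental and 4.06 and 3.51 CPM in shNC and LUM at 1.39 and 1.52 CPM in parental and 1.13 and 0.791 CPM in shNC. Their part in the matrix genes was not tested.

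Of 15 keratin genes tested of 20 listed, 6 were higher, 3 lower and 6 not called. Of the simple keratins KRT7 and KRT8 were not called, and KRT19 was higher by 1.26 (SE 0.14). KRT17, a stress and basal keratin, was at 98.8 and 77.9 CPM in parental and 2599 and 2704 CPM in shNC libraries (4.91, SE 0.16; edgeR adjusted p = 8.59e-16), KRT16 at 4.95 and 5.08 CPM in parental and 38.5 and 47.2 CPM in shNC and KRT14 at 0.0556 and 0.0598 CPM in parental and 7.08 and 4.4 CPM in shNC. KRT14, KRT16 and KRT17 are near-identical in sequence, so their counts are uncertain. The 3 lower keratins were KRT80, at 255 and 256 against 317 and 354 CPM (−0.39, SE 0.12), KRT23 at 0.0944 and 0.198 against 2.81 and 3.39 CPM (−4.37, SE 0.54), and KRT20, at 1.22 and 1.2 CPM in parental libraries and 0 counts in shNC, at least 16.7-fold lower by the floor used for MT1H. The call of KRT80 was lost without shNC replicate 1 (−0.39) or shNC replicate 2 (−0.40). S100P, a calcium-binding protein, was at 2.09 and 2.31 CPM in parental and 68.7 and 78.9 CPM in shNC (5.06, SE 0.17), and S100A14 at 5.43 and 4.53 CPM in parental and 74.4 and 76.4 CPM in shNC (3.93, SE 0.17). Of 21 S100 and annexin genes tested 11 were higher and 2 lower. In the junctions, the desmosomal gene JUP was at 259.8 and 210.2 CPM in parental and 664 and 654 CPM in shNC (1.49, SE 0.14) and DSP at 159.7 and 203 CPM in parental and 469 and 403 CPM in shNC (1.27, SE 0.13), while the tight junction scaffold TJP1 was lower, at 41.4 and 40.8 against 126 and 145 CPM (−1.72, SE 0.13). Of 25 junction genes tested 11 were higher and 5 lower. Genes of the TGF-beta and YAP pathways gave 12 higher and 7 lower of 28, with TGFB1 at 198 and 147 CPM in parental and 662 and 631 CPM in shNC (1.91, SE 0.14), the ectonucleotidase NT5E at 34.6 and 33.3 CPM in parental and 333 and 319.9 CPM in shNC (3.27, SE 0.14) and AJUBA, an adaptor that inhibits the Hippo kinases, lower at 45 and 46.5 against 329 and 314 CPM (−2.81, SE 0.13).

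Genes induced by interferon were of interest because unedited double-stranded RNA can trigger them. Of 48 listed genes 45 were tested, 20 were higher and 8 lower, with a median of 0.26, or 0.44 over members at a mean of at least 5 CPM. RSAD2, the antiviral protein viperin, was at 3.84 and 4.57 CPM in parental and 95.5 and 99.7 CPM in shNC libraries (4.53, SE 0.15; edgeR adjusted p = 2.39e-15). ISG15, a ubiquitin-like modifier, was at 167 and 147 CPM in parental and 1030.4 and 1097 CPM in shNC (2.76, SE 0.13; edgeR adjusted p = 2.03e-13), and IFIT3 at 30.2 and 33.8 CPM in parental and 196 and 178 CPM in shNC (2.55, SE 0.13; edgeR adjusted p = 1.59e-12). Other classic members did not follow: MX1 stood at 2.84 and 2.73 CPM in parental and 1.65 and 2.67 CPM in shNC (−0.36, SE 0.31; edgeR adjusted p = 0.329), while IRF9, the DNA-binding subunit of the interferon-activated transcription complex, was lower, from 1.67 and 2.47 to 0.189 and 0.247 CPM. IFIT1 and IFIT2 were higher too, by 2.45 and 2.32, and 17 of the 45 genes were not called. Among 18 tested of 19 genes that sense double-stranded RNA or DNA, 8 were higher and 6 lower. OASL was at 70.2 and 79.3 CPM in parental and 318 and 313 CPM in shNC (2.08, SE 0.12), IFIH1 (MDA5) at 12.2 and 10.5 CPM in parental and 38.2 and 40.9 CPM in shNC (1.81, SE 0.15) and RIGI at 0.278 and 0.319 CPM in parental and 4.62 and 3.51 CPM in shNC (3.74, SE 0.37). STING1 (−0.89, SE 0.13) and CGAS (−0.83, SE 0.19), of the DNA branch, were lower, and EIF2AK2 (PKR) was not called (−0.24, SE 0.14). The level of ADAR did not differ between these groups by more than its error, as given above. Counts per gene do not measure editing, and its part in these levels was not tested. In A2780-DDP 4 of the interferon-induced genes were higher and 26 lower, and the difference between the lines was called above for 30 and below for 2.

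The RSAD2 promoter is shown for its interferon-stimulated response element (GAAA and GAAA with any 2 bases between, on either strand), with the match in capitals on the opposite strand at −145 of the second RefSeq start.
RSAD2, chr2:6877527-6877776, plus strand, GRCh38.p14: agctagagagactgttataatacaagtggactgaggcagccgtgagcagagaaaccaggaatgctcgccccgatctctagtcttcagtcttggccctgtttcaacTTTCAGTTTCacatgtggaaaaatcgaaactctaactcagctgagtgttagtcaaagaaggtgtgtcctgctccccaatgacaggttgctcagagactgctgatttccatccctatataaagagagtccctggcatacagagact
The element was in 15 of 21 promoters of higher members (71.4%), 7 of 10 of lower members (70.0%) and 11 of 17 of members not called (64.7%), against 3.574% of 35116 promoters. For the double-stranded RNA sensing list it was in 2 of 5, 0 of 9 and 1 of 3 in the same order. All 3 classes of interferon-induced genes thus held it more often than promoters at large.

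Genes of NF-kB feedback, chemokines and cytokines were higher in 17 and lower in 8 of 30 tested, with a median of 0.96. TNFAIP3 (A20), which ends NF-kB signaling, was at 7.68 and 7.7 CPM in parental and 72.6 and 61.8 CPM in shNC libraries (3.13, SE 0.15; edgeR adjusted p = 3.83e-13). CXCL8, the neutrophil chemokine, was at 2.59 and 2.03 CPM in parental and 44.7 and 43.2 CPM in shNC (4.26, SE 0.21; edgeR adjusted p = 9.71e-13), and PTGS2 (cyclooxygenase 2) at 13 and 15.6 CPM in parental and 82.6 and 77.1 CPM in shNC (2.48, SE 0.14). LIF was at 21.7 and 24.6 CPM in parental and 94.4 and 90.6 CPM in shNC. NFKB1 and IL6 were lower, the latter at 2.45 and 4.5 against 9.01 and 9.59 CPM. The list thus held large differences both ways.

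Genes of antigen presentation were lower in part, and many genes around them were lower as well. Of 18 genes of MHC class I presentation 4 were higher and 7 lower. HLA-C was at 319 and 275 CPM in parental and 23.9 and 27 CPM in shNC libraries (−3.54, SE 0.16; edgeR adjusted p = 1.23e-13), and TAP2, a peptide transporter subunit, at 38.5 and 44 CPM in parental and 2.55 and 2.82 CPM in shNC (−3.94, SE 0.20; edgeR adjusted p = 1.63e-12). TAP1, which adjoins TAP2 and pairs with it, was not called, at 62.1 and 56.7 CPM in parental and 69.8 and 70.4 CPM in shNC, though it was called higher with upper-quartile scaling (0.32; edgeR adjusted p = 0.0414). The lower genes were not confined to presentation. In the MHC region (GRCh38, chromosome 6, 29555629 to 33409924) 101 coding genes were tested, 63 were lower (62.4%), against 32.6% of all 13532 coding genes, and 30 were lower by 4-fold or more (29.7%, against 3.85%), while 0 were higher by 4-fold. DDX39B, an RNA helicase of messenger RNA export in that region, was at 116 and 155 CPM in parental and 1.56 and 1.24 CPM in shNC (−6.59, SE 0.26; edgeR adjusted p = 1.66e-14). TRIM39, a ubiquitin ligase of the same region, was at 15.4 and 17.1 CPM in parental and 0.236 and 0.198 CPM in shNC (−6.19, SE 0.37). C6orf47, also of the region, was at 20.6 and 20.6 CPM in parental libraries and had 0 counts in both shNC libraries.

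Several genes expressed in parental cells had 0 counts in shNC. TIGD5, derived from a transposase, was at 63.1 and 50.3 CPM in parental libraries and had 0 counts in shNC, at least 768-fold lower with a floor of 3 counts over the group. NSMCE3, of the SMC5/6 complex, was at 31.6 and 30.6 CPM and at least 428-fold lower, EPOP, an elongin-binding protein, at 31.8 and 27.8 CPM and at least 407-fold lower, and KCTD11 at 21.8 and 22.7 CPM and at least 308-fold lower. The histone gene H2AC25 had 2215 counts over the parental libraries and 2 over the shNC libraries, a ratio of 533 with a 95% counting interval from 147 to 4401. HSPA1A, a heat shock gene of the MHC region with a near-identical neighbor, was at 16.8 and 13.9 CPM in parental and 0.0944 and 0.0989 CPM in shNC (−7.24, SE 0.41). In the same libraries 60 of the 72 cytosolic ribosomal protein genes were higher. The list's median difference was 0.49, and without shNC replicate 2 the calls numbered 32.

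Low levels of this kind were seen in every hairpin library. A set was drawn of the genes that lay, in all 6 hairpin libraries, over 4-fold below every one of the other 8 libraries, which had to be above 1 CPM. It held 121 genes. All 14 libraries took part in that choice, so no test was made of it, and the levels given next follow from the rule. Its median log2 level less the parental mean (0.5 CPM added) was −3.12 and −3.25 in shNC, −3.09 and −3.13 in sh1 and −3.12 and −3.14 in sh2, against 0.15 and 0.13 in the libraries titled OVCAR3-DDP and 0.21 and 0.34 in A2780-DDP. Of the 121 genes 20 lay in the MHC region (16.5%, against 0.668% of 17221 genes at a mean of 1 CPM or more), and 14 of its 71 coding genes had 1 exon (19.7%, against 2.41%). Over all coding genes tested, 52 of 335 with 1 exon were lower by 4-fold or more (15.5%, against 3.85% of all 13532). Higher by 4-fold or more were 36 of the 335, against 700 of the 13532, so genes with 1 exon lay in both directions. The hypoxia list made up 33 of the 17221 genes, and 0 of the 121 were on it, which is near that share. By the mirror rule 193 genes were higher in all 6 hairpin libraries, of which 6 were on the hypoxia list. Among the 101 coding genes of that higher set 7 had 1 exon (6.93%, against 2.41%). Of these 193, 0 lay in the MHC region, which is near the share over all genes (115 of 17221). The share of reads with more than 1 alignment separated the same 6 libraries from the same 8. Its part in these low levels was not tested, and the sources used here do not say whether the hairpin libraries were made or counted in another way.

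The integrated stress response and amino acid supply genes were mostly lower. Of 29 genes 5 were higher and 18 lower, 9 of them by 2-fold or more, with a median of −0.65. CHAC1, which degrades glutathione, was at 71.3 and 64.1 CPM in parental and 1.7 and 2.67 CPM in shNC libraries (−4.95, SE 0.24; edgeR adjusted p = 4.27e-13). SESN2, an inhibitor of mTORC1, was at 93.8 and 99.5 CPM in parental and 7.31 and 7.22 CPM in shNC (−3.73, SE 0.17; edgeR adjusted p = 1.55e-13), and PSAT1, of serine synthesis, at 278 and 291 CPM in parental and 58.6 and 55.4 CPM in shNC (−2.32, SE 0.14). ATF4, the transcription factor of the pathway, was lower (−0.58, SE 0.12). Members that went against the list were DDIT4, which is also a HIF target, at 769 and 739.5 CPM in parental and 2276 and 2452 CPM in shNC (1.65, SE 0.12), and PPP1R15A, the phosphatase subunit that ends the response, at 83.3 and 78.4 CPM in parental and 437 and 471 CPM in shNC (2.49, SE 0.12). A2780-DDP had 21 of the genes lower and 1 higher, with a median of −0.54. The lines differed for DDIT4, which was lower in A2780-DDP (−3.11, SE 0.11; difference 4.78, SE 0.15, edgeR adjusted p = 1.61e-10). Chaperones of the endoplasmic reticulum were higher in 10 and lower in 0 of 22. HSPA5 (BiP), the main chaperone there, was at 1781 and 1507 CPM in parental and 6858 and 7555 CPM in shNC (2.13, SE 0.12; edgeR adjusted p = 2.95e-12) and HSP90B1 at 966 and 859.9 CPM in parental and 2096 and 2163 CPM in shNC (1.22, SE 0.12), whereas XBP1 was not called (−0.10, SE 0.13).

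In the BCL2 and caspase families, which hold members for and against cell death, 11 of 26 tested genes were higher and 5 lower. MCL1, an anti-apoptotic BCL2 relative, was at 429 and 435 CPM in parental and 1512 and 1535 CPM in shNC libraries (1.82, SE 0.11; edgeR adjusted p = 2.49e-11). CFLAR, which blocks caspase 8, was at 25 and 24 CPM in parental and 47.6 and 50.3 CPM in shNC (1.0, SE 0.13), and caspase 8 itself, CASP8, was lower, at 17.6 and 14 against 34.5 and 31.5 CPM (−1.06, SE 0.18). BCL2 was lower (−1.42, SE 0.23), and BCL2L1 (BCL-XL) was not called (−0.23, SE 0.12). Pro-apoptotic BAK1 was higher by 0.83 (SE 0.14). In the insulin-like growth factor axis 9 of 16 tested were higher and 3 lower. IGFBP3, a binding protein, was at 154 and 149 CPM in parental and 1512 and 1515 CPM in shNC (3.32, SE 0.12; edgeR adjusted p = 6.5e-15), IGFBP6 at 64.2 and 59.8 CPM in parental and 328 and 373 CPM in shNC (2.5, SE 0.13) and H19, an imprinted noncoding RNA, at 48.9 and 45.8 CPM in parental and 899.8 and 937 CPM in shNC (4.28, SE 0.14; edgeR adjusted p = 9.83e-16). The receptor gene IGF1R was lower (−0.46, SE 0.12). Cholesterol and fatty acid synthesis genes gave 11 higher and 6 lower of 28, with INSIG1, a sterol-sensing retention factor, at 99 and 84.5 CPM in parental and 395 and 426 CPM in shNC (2.16, SE 0.13) and LSS, lanosterol synthase, at 139 and 141 CPM in parental and 32.5 and 28 CPM in shNC (−2.21, SE 0.17).

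The A2780 pair shares no library with the OVCAR3 pair and served to compare the differences between resistant and parental cells. In a fit of both pairs, 9805 of 22374 genes (43.8%) differed between the lines in that difference, 4502 with shNC above (20.1%) and 5303 below (23.7%). In the same fit 12085 genes were called for shNC and 7747 (34.6%) for A2780-DDP, and 4730 were called in both, which is 39.1% of the former and 61.1% of the latter. Of these 1408 were higher in both, 1237 lower in both, 922 higher in shNC and lower in A2780-DDP and 1163 the reverse. Across the 22374 genes, which are not independent replicates, Pearson's r of the 2 differences was 0.077 and Spearman's rho 0.091.

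Genes that moved the same way in both lines included a few with large differences. ADM was at 10.5 and 10.5 CPM in parental A2780 and 207 and 185 CPM in A2780-DDP (4.22, SE 0.14), beside 5.62 (SE 0.16) in the OVCAR3 pair. ZFP36 was higher by 2.41 (SE 0.10) in A2780-DDP, FOSB by 2.56 (SE 0.17) and AKAP12, a scaffold for protein kinase A, by 2.24 (SE 0.13). Lower in both lines were FOXL2, an ovarian transcription factor, with −2.98 (SE 0.16) in A2780-DDP and −3.05 (SE 0.24) in shNC, the branched-chain aminotransferase BCAT1 with −3.14 (SE 0.14) and −1.73 (SE 0.20), and CCN2, a YAP target, with −1.99 (SE 0.09) and −1.99 (SE 0.23). Genes with opposite calls included IGFBP3, lower in A2780-DDP (−6.78, SE 0.17), RB1, the retinoblastoma gene, lower there (−2.94, SE 0.15) and higher in shNC (2.55, SE 0.19), and EGR1, higher there (1.77, SE 0.11) and lower in shNC (−2.67, SE 0.24). Of the hypoxia list 28 of 33 members were called for a larger difference in shNC and 0 for a smaller one by edgeR's test of the difference.

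**Figure D5:**
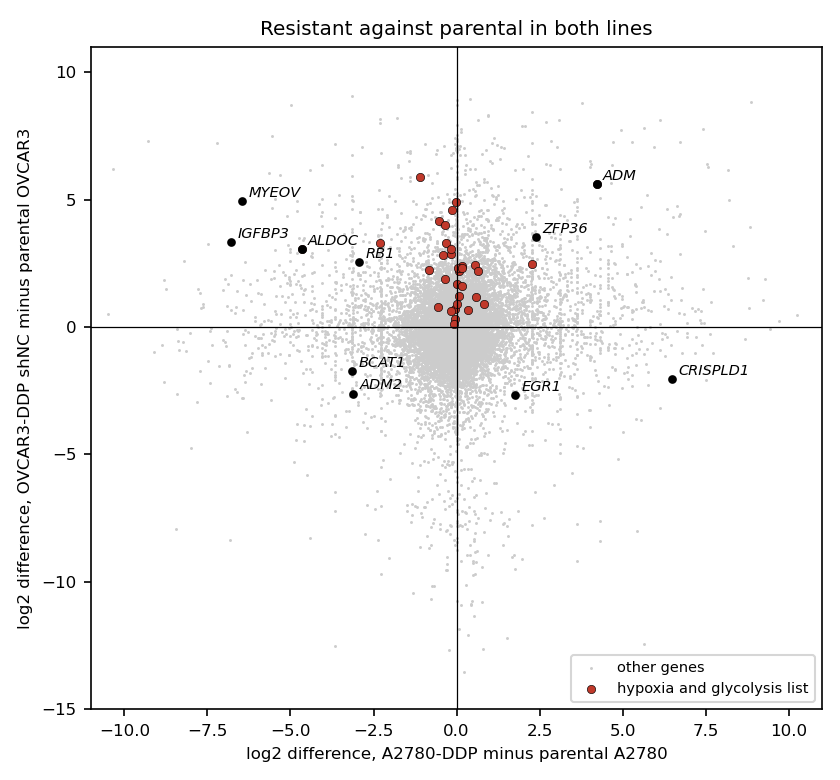
Log2 difference of shNC minus parental OVCAR3 (vertical axis) against A2780-DDP minus parental A2780 (horizontal axis) for genes tested in both fits, with 10 genes labelled and the hypoxia and glycolysis list in red. Most list members lie above 0 vertically and near 0 horizontally, ADM lies far from 0 on both axes, and IGFBP3 and MYEOV lie at the upper left.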

How the data were processed

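RNA was measured in 14 libraries of 7 groups of 2, of which the 2 parental OVCAR3 and 2 shNC libraries are compared here. The authors deposited whole-number counts per gene for each library, which per the submitters' processing notes came from FastQC 0.11.9, STAR 2.7.8a, SAMtools and HTSeq 2.0.3 on GRCh38.p13. Nothing used here names the annotation release, the counting mode for strand or the RNA selection. Rows that name no gene stayed out of library sizes, and reads without a feature made up 48.7% to 50.0% of each file. Of 62757 gene IDs 62639 matched a symbol and 58274 a GENCODE 29 record, which gave gene types and coordinates. Promoter sequences are RefSeq's on GRCh38.p14.

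Genes were filtered with edgeR's filterByExpr (minimum count 10), scaled by TMM and tested with edgeR 4.0.16 (R 4.3.3) by the quasi-likelihood F-test in 1 fit of the 8 libraries of parental OVCAR3, shNC, sh1 and sh2, with Benjamini-Hochberg adjustment over all genes tested at 0.05. The difference from A2780 came from a fit of the shNC, parental OVCAR3, A2780-DDP and parental A2780 libraries. Standard errors were taken as the log2 difference over the square root of F. The scripts were tested on simulated counts with known changes. Groups were taken from titles and genotype labels, and assigned counts of 20428538 to 49115255 per library set the precision, with counting intervals covering counting error only. DESeq2 1.42.0 and limma 3.58.1 were among the alternatives, with other scalings, filters, library sets, a replicate block and each library left out.

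The comparison and the 50 gene lists were chosen with earlier results of these data known. Genes were named by rule: the ADAR family, the 15 coding and 6 other genes with the largest called differences each way at 10 CPM or more with no overlap of the groups, genes at 30 CPM or more in one group and under 0.3 CPM in the other, up to 6 called members of each list by smallest adjusted p and up to 4 members not called by highest CPM, the 6 genes of largest size in each pairing of directions over both lines, the 5 largest line differences each way, and the 6 coding genes of highest CPM. Any other list member or marker named was chosen after its values were seen: CA9, CA12, VEGFA, BNIP3, BNIP3L, P4HA1, P4HA2, the glycolytic genes beyond SLC2A1, SLC2A3 and GAPDH, MSLN, PAX8, MT-ND4, SLC30A1, SLC39A10, GCLM, GPX4, HMOX1, GSTP1, ERCC1, ERCC5, BRCA1, BRCA2, CCND1, PLAU, MX1, IRF9, CGAS, NFKB1, IL6, ATF4, CASP8, IGF1R, KRT80, KRT20, WT1, SOX17, CDH1, WFDC2, CD3E, PECAM1 and STMN2. MUC16 too was named after its values were seen. The genes lower or higher in all hairpin libraries were also defined after the data were seen. A few genes that the rule names are not reported here.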

Additional observations from a re-analysis of the deposited data

Results flagged for a closer look

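The differences below are those of the shNC pair less the A2780 pair on the log2 scale, each called by edgeR's test of that difference itself. Of genes called in opposite directions in the 2 lines, those higher in shNC and lower in A2780-DDP by large sizes included MYEOV (11.4), IGFBP3 (10.1), ALDOC (7.75), HEY1 (6.23) and RB1 (5.51). HEY1 is a target of Notch, and RB1 restrains entry into S phase. Those lower in shNC and higher in A2780-DDP were H2AC25 (−10.7), CRISPLD1 (−8.48), RFLNB (−6.78), ID3 (−5.69), EGR1 (−4.43) and EPHB2 (−3.47). ID3 is an inhibitor of helix-loop-helix factors induced by BMP signaling, and EPHB2 is an ephrin receptor.

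Irrespective of direction, the largest differences below were TIGD5 (−14.1), KCTD11 (−14.0), EPOP (−13.7), NSMCE3 (−12.8) and C6orf47 (−12.8), which had 0 counts in both shNC libraries. H2AC25, above, had 2 counts there. Among the largest above were DCLK1 (13.4), MYEOV, already given, and ARMCX6 (11.1). DCLK1 and ARMCX6 had 0 counts in both A2780-DDP libraries. Fitted values against a group at 0 depend on the prior count and bound nothing.

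Reads with more than 1 alignment, which no comparison used, made up 4.89% and 4.94% of reads in the shNC libraries, above the parental libraries. The part of that share in the results was not tested.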

How the results depend on the processing

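The count of genes called between shNC and parental OVCAR3 (11347) lay between 8343 and 12463 under other scalings, filters, tools and library sets, and between 9006 and 10591 with 1 library left out. With a test against a 2-fold difference (edgeR's glmTreat) it was 3311, which that test's stricter null sets. The count at 2-fold or more (6000) was 3142 at a mean of at least 5 CPM and 3558 over protein-coding genes only, where fewer genes were tested. The count of genes differing from the A2780 pair (9805) ranged from 7923 to 10197, and from 8020 to 10117 with 1 library left out. No scaling moved the median of all genes by over 0.1 on the log2 scale.

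Replicate numbers did not pair the samples, since the deviations of parental and shNC libraries with the same number correlated at −0.055. Among the 4 groups of the fit with A2780 such correlations ranged from −0.164 to 0.334, the highest for parental OVCAR3 and A2780-DDP. With the replicate block 11097 genes were called, 5911 of them at 2-fold or more, and 9578 differed from the A2780 pair. The block ended the calls of PGAM1 and GSTP1 (edgeR adjusted p = 0.0540 and 0.0660) and of no other gene named in the report.

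Differences near 0, none called, took the other sign under single settings: ADAR with upper-quartile scaling (0.020) and ADARB1 without a low-count filter (−0.029). With each library left out in turn, ADAR ranged from −0.20 to 0.078, with 0.0015 without shNC replicate 2, and ADARB1 from −0.12 to 0.16, with −0.027 without shNC replicate 1. In the same way KRT7 ranged from −0.018 to 0.17, KRT8 from −0.028 to 0.16, XBP1 from −0.25 to 0.042 and BRCA2 from −0.45 to 0.040. The cause was not tested. Calls that depended on 1 library are given beside their genes. The set lower in all hairpin libraries (121 genes) held 355 genes at 2-fold, 60 at 10-fold and 65 above 5 CPM. The 5 genes on in one group and off in the other became 18 at limits of 10 and 0.1 CPM and 21 at 20 and 1 CPM. With 2 libraries a group, few counts limit the genes near 0 CPM most.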
